A study of Homo sapiens with 10 samples.

Results

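The 39 genes described here encode proteins that detect a DNA double-strand break, mark the chromatin around it, decide how its ends are handled and hold the cell cycle while it is repaired. They were taken by gene name from a list of break-signalling and checkpoint factors, and all 39 were found among the 18034 genes listed in the deposited tables. HCT116, a long-established line of human colorectal carcinoma cells, was profiled by mRNA sequencing in 5 groups of 2 libraries. DMSO and EPZ are HCT116 cells of control genotype, given the solvent or 10 µM EPZ-5676, an inhibitor of the histone methyltransferase DOT1L, for 72 h. EV, WT and K56A are HCT116 cells with CDK9 knocked down by shRNA and no drug listed. CDK9 is the kinase subunit of P-TEFb, which drives transcription elongation. WT had wild-type CDK9 put back and K56A had CDK9 with a lysine changed to alanine put back, while the labels do not spell out EV. The title of the series concerns DOT1L, CDK9 and double-strand break repair, and no group was labelled as irradiated or given a break-inducing drug.

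As background, breaks are sensed by the kinases ATM and ATR, which phosphorylate histone H2AX and many other proteins. MDC1 binds the phosphorylated histone and recruits the ubiquitin ligases RNF8 and RNF168, and the ubiquitin marks they leave draw in TP53BP1 (53BP1) with its shielding partners and the BRCA1-A complex. The checkpoint kinases CHEK1 and CHEK2 carry the signal to the cell cycle. Much of this pathway is run by phosphorylation and ubiquitin, so that RNA levels describe how much message for each part was present and not whether the pathway was active.

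The checkpoint genes include several whose transcription is known to follow the cell cycle, so the promoter stretches of 3 members are shown first. They come from RefSeq (GRCh38.p14), which held entries for 33 of the 39 members. Each is printed from 5′ to 3′ on the strand of the gene and ends just before a RefSeq start site. Bases in exons of the GENCODE v29 annotation were left out. The windows searched were the 250 bases before each start. Capitals mark the letters of 2 motifs, searched on both strands and whose letters do not overlap: an E2F-type site (TTTCGCGC, TTTGGCGC or TTTCCCGC) and the CCAAT box, which reads ATTGG when it lies on the other strand. CDC25A is shown because it is 1 of 2 members with an E2F-type match, CHEK1 because it had the lowest log2 fold change after EPZ, and NUDT16L1 because it had the lowest EV level beside DMSO. CDC25A lies on the minus strand at chr3:48188418-48188667, CHEK1 on the plus strand at chr11:125626035-125626228 and NUDT16L1 on the plus strand at chr16:4693443-4693692. Another RefSeq start of NUDT16L1, at 4693562, lies inside its stretch, so part of that stretch follows this other start. The CHEK1 stretch lies inside the span of CHEK1 (chr11:125625665-125676255), past the first base of the gene.
CDC25A: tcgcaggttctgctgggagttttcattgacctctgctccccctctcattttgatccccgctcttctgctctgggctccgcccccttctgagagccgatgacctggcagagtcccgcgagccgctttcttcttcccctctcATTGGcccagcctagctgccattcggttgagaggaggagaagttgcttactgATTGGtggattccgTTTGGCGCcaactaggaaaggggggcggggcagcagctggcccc
CHEK1: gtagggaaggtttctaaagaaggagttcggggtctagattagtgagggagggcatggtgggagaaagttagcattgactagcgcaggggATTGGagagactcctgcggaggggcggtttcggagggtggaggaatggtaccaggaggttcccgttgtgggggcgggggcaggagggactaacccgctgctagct
NUDT16L1: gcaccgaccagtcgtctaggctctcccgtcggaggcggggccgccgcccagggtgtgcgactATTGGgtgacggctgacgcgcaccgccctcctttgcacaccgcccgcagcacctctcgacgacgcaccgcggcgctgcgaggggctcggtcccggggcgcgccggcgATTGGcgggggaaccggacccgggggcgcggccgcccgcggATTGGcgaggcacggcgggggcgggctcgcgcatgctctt
The CDC25A stretch holds an E2F-type match close to a CCAAT box, and the NUDT16L1 stretch holds 3 CCAAT boxes. Over all 35116 RefSeq windows, 2.32% held an E2F-type match and 32.0% a CCAAT box. Of the 50 windows of members, 2 held an E2F-type match (CDC25A and SMC1A) and 27 a CCAAT box, the latter in 18 of the 33 members matched. A match is a run of letters and no evidence of a bound factor.

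The libraries were alike within groups and differed between the experiments. Replicates correlated across genes with r = 0.981 for DMSO, 0.990 for EPZ and 0.992 to 0.994 for the knockdown lines. Genes of the mitochondrial genome made up 17.3% to 19.3% of all FPKM in DMSO and EPZ. In the knockdown libraries they made up 26.4% to 28.9% of the FPKM kept for the joint fit described below, which leaves some genes and transcripts out. The epithelial genes EPCAM, KRT8, KRT18, CDH1 and CDX2 were present in every library and VIL1 was not listed. Of 9 markers of blood, stromal and endothelial cells, PTPRC, CD3E, COL1A2, DCN and CDH5 were not listed, CD68, PECAM1 and VWF stayed below 1 FPKM, and COL1A1 lay at 19.3 to 36.2 FPKM. CDK9 had 43.9 and 37.6 FPKM under DMSO, 41.9 and 38.5 under EPZ, 16.4 and 19.4 for EV, 3060 and 2976 for WT, and 2609 and 2499 for K56A. DOT1L had 12.6 and 12.5 FPKM under DMSO, 10.7 and 10.4 under EPZ, 324 and 343 for EV, 578 and 568 for WT, and 733 and 702 for K56A, so the lines labelled as CDK9 knockdowns also differed from DMSO, and from each other, in DOT1L RNA. The part of that in the results below was not tested.

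Nearly all of the pathway was expressed at moderate levels. The unit is FPKM (fragments per kilobase of transcript, relative to library size), summed over a gene's transcripts, and allows genes to be ranked against each other. In DMSO, 29 members lay between 5 and 30 FPKM, 9 lay above 30 and 1 below 5, with a median of 16.1. The highest was DYNLL1, a dynein light chain that also binds 53BP1, at 229 ± 2.07 FPKM (SD, n = 2), and the lowest was SHLD1, a shieldin subunit, at 0.731 and 0.413. SHLD1 stayed below 1 FPKM in all 10 libraries and was not tested. Summed over members, the RNA took 0.192% to 0.195% of all FPKM in the inhibitor experiment. In the knockdown lines it took 0.180% to 0.193% of the FPKM kept for the joint fit, which leaves out RNF8 and PAXIP1. These ranges therefore do not share a base.

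**Figure D1:**
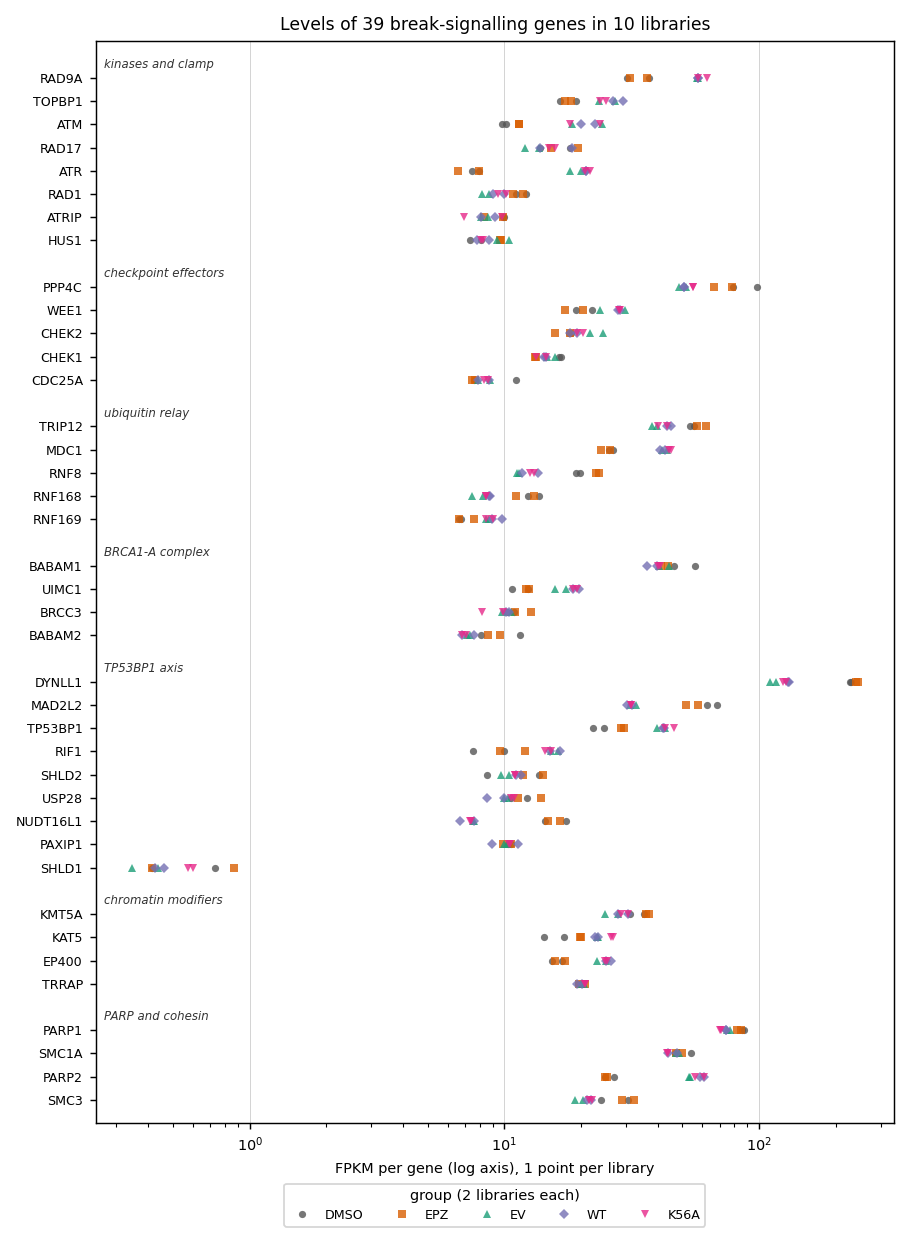
FPKM of each of the 39 genes (log axis) in every library, 1 point per library, with 2 libraries in each of 5 groups and genes ordered by role. Most genes lie between 5 and 30 FPKM, DYNLL1 is the highest and SHLD1 the lowest, and knockdown points of ATR, ATM and PARP2 lie to the right of DMSO and EPZ.

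The first question was whether inhibition of DOT1L moved the RNA of these genes. No member passed the test. Differences between groups are given as log2 fold changes of FPKM + 0.5 with a standard error, tested with limma across all genes and called at an adjusted p under 0.05. Of the 38 members tested, 0 were called, against a background of 0.00762% of 13130 genes (1 gene). At an unadjusted p under 0.05 there were 3 members, 7.89% of those tested against 5.83% of all genes. The EPZ and DMSO libraries did not overlap for 15 members, 39.5% of those tested, where 37.4% of all genes did not. The median of the members was 0.00, the same as that of all genes, with 19 members above 0 (50% against 50.5%) and 19 below, from -0.31 to 0.34. Without DMSO replicate 2 the count of members called did not stay at 0, and the count over all genes rose as well. The difference of KAT5 was 0.47 in that fit. That fit leaves DMSO with 1 library, which is assumed to vary like the EPZ pair. In such bulk RNA, fewer cells expressing a gene and less RNA per cell cannot be told apart.

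The intervals show how large a change these libraries leave room for, given the spread between 2 libraries per group. That spread may be technical only, because separate cultures are not labelled, and the scale understates changes of low genes. The intervals are therefore no firm bound on a biological change. The 95% interval lay within 1.5-fold in either direction for 30 of the 38 members, and for 63.6% of all genes. The other 8 were TP53BP1, RIF1, SHLD2, HUS1, CHEK1, PPP4C, CDC25A and KAT5, and all 38 intervals lay within 2-fold. The widest bound was that of SHLD2, at 0.76 on the log2 scale.

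After EPZ, the checkpoint effectors were the one group of roles with every member below 0. All 5 lay there, with a median of -0.27, where 49.5% of all genes lay below 0. The roles were assigned here, and members of a role share the same libraries and are not replicates. In each knockdown comparison the same 5 lay on both sides of 0. For K56A versus EV, all 4 tested members of the ubiquitin relay and of the chromatin modifiers lay above 0, as did 57.7% of all genes. Whether the genes of a role moved together was not tested. CHEK1 (ENSG00000149554, chr11:125625665-125676255, GRCh38), the kinase that ATR activates, had 16.4 and 16.7 FPKM under DMSO and 13.3 and 13.3 under EPZ, so the groups did not overlap. Its difference of -0.31 ± 0.13 (SE) did not pass (limma, adjusted p = 0.756). PPP4C, the catalytic subunit of protein phosphatase 4, which removes phosphate from H2AX, had 98.4 and 79.0 FPKM under DMSO and 78.3 and 66.8 under EPZ. CDC25A, the phosphatase that CHEK1 targets for destruction, had 11.1 and 7.63 FPKM under DMSO and 7.48 and 7.70 under EPZ, so that DMSO replicate 1 alone stood above the other 3. It is the member whose promoter stretch above holds the E2F-type match. WEE1, the kinase that holds CDK1 inactive, had 19.2 and 22.0 FPKM against 17.3 and 20.4, and CHEK2, the kinase that ATM activates, had 18.3 and 18.0 against 15.8 and 18.1. Both pairs of groups overlapped. Among 16 proliferation genes measured beside them, 0 were called and the median was 0.02. At an unadjusted p under 0.05 there were 4 of these genes, 25% against 5.83% of all genes. MCM5, a subunit of the replicative helicase, had the largest difference of -0.54 ± 0.14 (limma, adjusted p = 0.756).

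The chromatin modifiers lay on the other side. All 4 had differences above 0, with a median of 0.09, where 50.5% of all genes lay above 0. KAT5 (TIP60; ENSG00000172977, chr11:65712018-65719604), the acetyltransferase that activates ATM, had 14.3 and 17.1 FPKM under DMSO and 19.9 and 19.9 under EPZ. At 0.34 ± 0.14 this was the largest difference above 0 of any member, and it did not pass (limma, adjusted p = 0.756). It was 0.14 over coding transcripts alone and 0.21 without DMSO replicate 1. Exons of RNASEH2C, on the other strand, cover 38.6% of the exonic bases of KAT5, and reads of both cannot be told apart without a known strand setting. RNASEH2C itself had a difference of 0.09 ± 0.16. KMT5A, which places the H4 methyl mark whose higher state 53BP1 reads, had means of 33.3 FPKM under DMSO and 36.5 under EPZ. The scaffolds TRRAP and EP400, partners of KAT5 in 1 complex, differed by 0.03 and 0.04.

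Among the factors that act on the 53BP1 side, differences pointed both ways. TP53BP1 had 22.4 and 24.7 FPKM under DMSO and 29.6 and 28.6 under EPZ, a difference of 0.30 ± 0.12 that did not pass (limma, adjusted p = 0.756) and was 0.10 over coding transcripts alone. TUBGCP4, which overlaps 28.7% of its exonic bases on the other strand, differed by 0.06 ± 0.14. MAD2L2 (REV7), the shieldin subunit shared with translesion synthesis, had 68.6 and 62.2 FPKM under DMSO and 57.4 and 51.5 under EPZ, a difference of -0.26 ± 0.12 (limma, adjusted p = 0.756). RIF1, which 53BP1 recruits, had 7.53 and 9.98 FPKM under DMSO and 9.62 and 12.0 under EPZ, and SHLD2 had 8.52 and 13.7 against 11.9 and 14.2, both with overlapping groups. NUDT16L1 (TIRR), which covers the histone-binding surface of 53BP1, PAXIP1 (PTIP), another 53BP1 partner, the 53BP1-binding deubiquitinase USP28 and DYNLL1 lay between -0.02 and 0.13.

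Of the remaining members, HUS1, RNF8 and BABAM1 lay furthest from 0. HUS1 forms the sliding clamp that activates ATR with RAD1 and RAD9A. It had 8.13 and 7.34 FPKM under DMSO and 9.74 and 9.62 under EPZ, a difference of 0.31 ± 0.14 (limma, adjusted p = 0.756). The other 7 of the kinases and the clamp lay between -0.12 (ATRIP, the partner of ATR) and 0.19 (ATM). In the ubiquitin relay, RNF8 had 19.1 and 19.8 FPKM under DMSO and 23.0 and 23.6 under EPZ, a difference of 0.25 ± 0.12 (limma, adjusted p = 0.756). MDC1, RNF168, its antagonist RNF169 and TRIP12, a ligase that limits RNF168, lay between -0.10 and 0.12. In the BRCA1-A complex, the scaffold BABAM1 (MERIT40) had 55.9 and 46.3 FPKM under DMSO and 44.0 and 41.2 under EPZ. Exons of another gene, on the same strand, cover 32.6% of the exonic bases of BABAM1. UIMC1 (RAP80), BABAM2 and the deubiquitinase BRCC3 lay between -0.09 and 0.16. The break sensors PARP1 and PARP2 and the cohesin subunits SMC1A and SMC3 lay between -0.05 and 0.17.

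**Figure D2:**
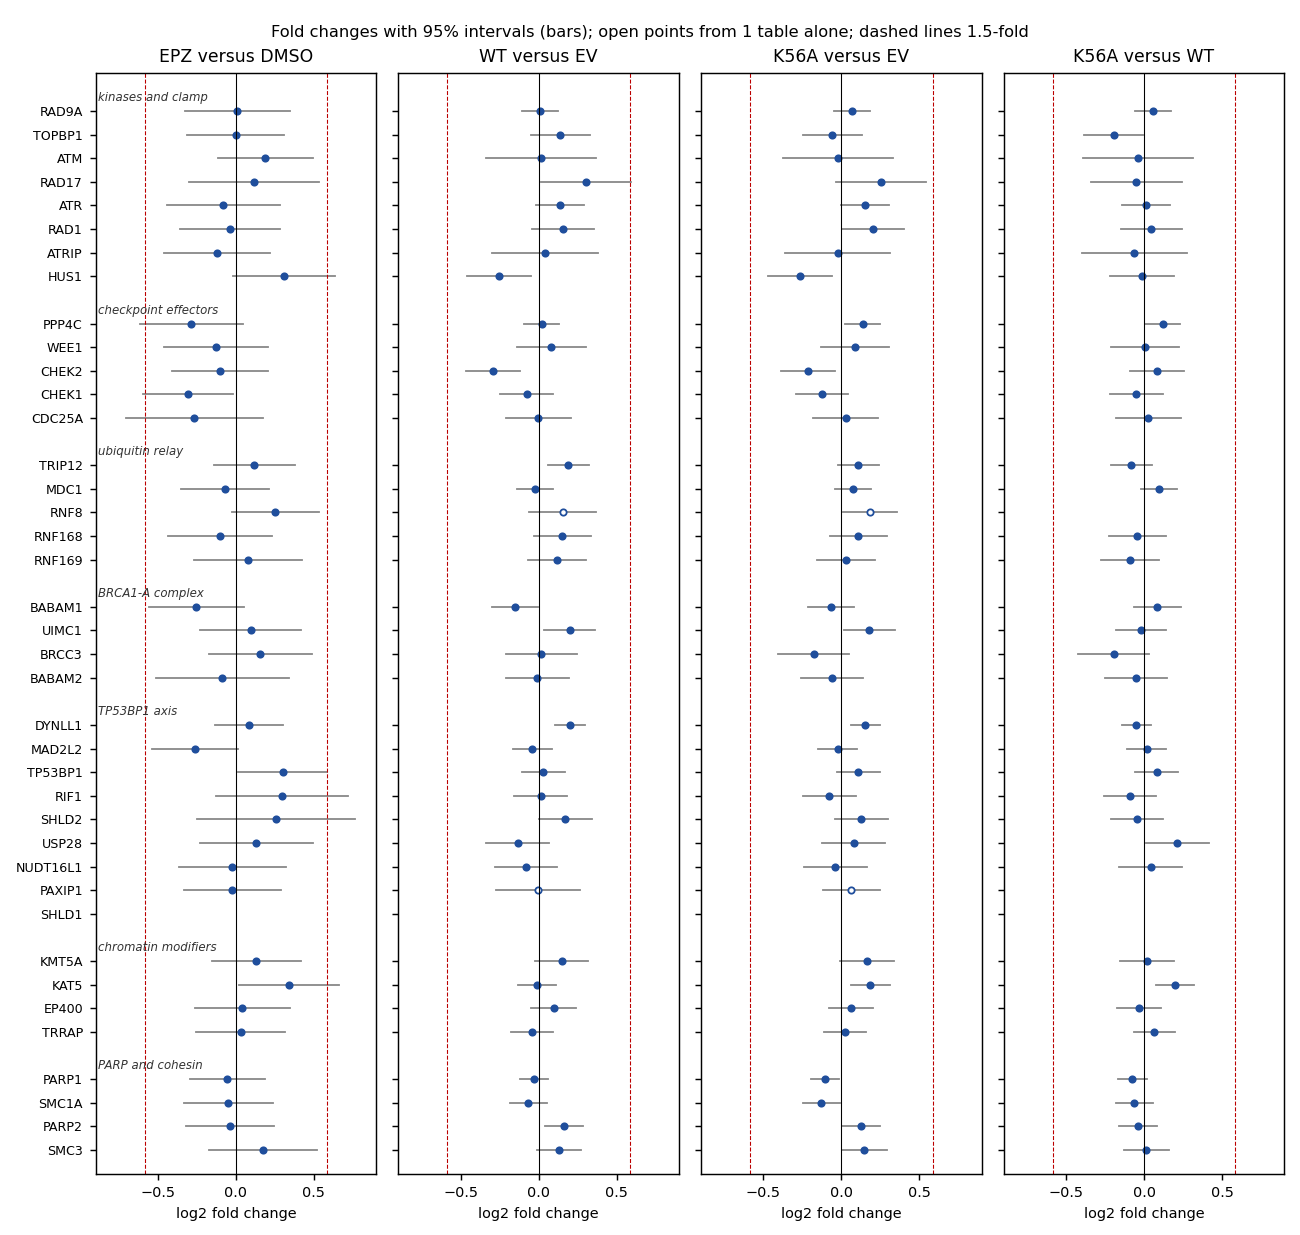
Log2 fold change of each member (points) with its 95% interval (bars) in the 4 comparisons, from limma, with dashed lines at 1.5-fold and open points for RNF8 and PAXIP1, which were fitted in 1 table alone. The intervals are wider for EPZ versus DMSO than for the knockdown lines, and SHLD1 has none.

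The knockdown lines compare the same genes with wild-type CDK9 or its K56A form put back, in lines that also differed in DOT1L RNA. Putting back wild-type CDK9 gave no call among members. Of 36 members tested in WT versus EV, 0 were called where 0.536% of 11566 genes were (9 rose and 53 fell). At an unadjusted p under 0.05 there were 9 members, 25% against 13.5% of all genes, and the libraries did not overlap for 19 members, 52.8% against 43.5%. The median was 0.02, and that of all genes 0.01, with 22 members above 0 (61.1% against 52.6%) and 14 below. The 95% interval lay within 1.5-fold for 35 of 36 members, and for 88.2% of all genes. RAD17, the clamp loader, reached 0.59 on the log2 scale.

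DYNLL1 (ENSG00000088986, chr12:120469850-120498493) came nearest to the threshold. It had 110 and 117 FPKM for EV, 130 and 132 for WT, and 125 and 128 for K56A, so that both EV libraries lay below the other 4. The difference was 0.20 ± 0.04 for WT versus EV (limma, adjusted p = 0.0898) and 0.15 ± 0.04 for K56A versus EV (limma, adjusted p = 0.157), and the EV libraries are shared by both. CHEK2 (ENSG00000183765, chr22:28687743-28742422) had 21.7 and 24.4 FPKM for EV, 18.0 and 19.3 for WT, and 19.2 and 20.3 for K56A, with EV above the other 4. Its difference of -0.29 ± 0.08 for WT versus EV did not pass (limma, adjusted p = 0.146), and that for K56A versus EV was -0.21 ± 0.08 (limma, adjusted p = 0.255). TRIP12 had 39.8 and 37.9 FPKM for EV, 45.1 and 43.7 for WT, and 43.6 and 40.2 for K56A. Its difference for WT versus EV was 0.19 ± 0.06 (limma, adjusted p = 0.205). PARP2, which is activated by DNA ends beside PARP1, had 53.6 and 53.0 FPKM for EV, 60.9 and 58.7 for WT, and 55.9 and 60.7 for K56A, with 0.16 ± 0.05 for WT versus EV (limma, adjusted p = 0.230), or 0.06 over coding transcripts alone.

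K56A versus EV gave no call among members either. Of 36 tested, 0 were called where 0.787% of all genes were (22 rose and 69 fell). At an unadjusted p under 0.05 there were 11 members, 30.6% against 15.1%, and the libraries did not overlap for 24 members, 66.7% against 45.6%. The median was 0.06 beside 0.03 for all genes, and 22 members lay above 0 (61.1% against 57.7%). The interval of every member lay within 1.5-fold, as did that of 88.1% of all genes. HUS1 had 10.5 and 9.40 FPKM for EV, 8.72 and 7.80 for WT, and 8.10 and 8.21 for K56A, with a difference of -0.27 ± 0.09 for K56A versus EV (limma, adjusted p = 0.230), or -0.49 over coding transcripts alone. PPP4C had 48.4 and 51.7 FPKM for EV, 50.6 and 50.8 for WT, and 55.1 and 55.1 for K56A, with 0.14 ± 0.05 (limma, adjusted p = 0.252), or 0.09 without EV replicate 1. RNF8 and PAXIP1, fitted in each table alone because part of their FPKM lay in transcripts listed in only 1 knockdown table, differed by 0.15 ± 0.09 and 0.00 ± 0.11 for WT versus EV and by 0.18 ± 0.07 and 0.06 ± 0.08 for K56A versus EV (limma, adjusted p = 0.347 for the smallest).

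K56A beside WT compares the changed and the wild-type CDK9 with the amount of CDK9 RNA nearer to equal. DOT1L RNA also differed between these lines, with 578 and 568 FPKM in WT and 733 and 702 in K56A. A difference can therefore not be assigned to the lysine alone. Of 36 members, 0 were called where 0.0605% of all genes were (2 rose and 5 fell). At an unadjusted p under 0.05 there were 4 members, 11.1% against 13%, and the libraries did not overlap for 14 members, 38.9% against 45.4%. The median was -0.02 beside 0.01 for all genes, with 17 members above 0 (47.2% against 54.5%) and 19 below. KAT5 had 23.4 and 22.7 FPKM in WT and 26.2 and 26.7 in K56A, beside 23.0 and 23.4 in EV, so that both K56A libraries lay above the other 4. The difference was 0.20 ± 0.05 (limma, adjusted p = 0.201), or 0.09 over coding transcripts alone. For K56A versus EV, KAT5 differed by 0.19 ± 0.05 (limma, adjusted p = 0.178), or 0.14 over coding transcripts alone. USP28 had 9.96 and 8.55 FPKM in WT and 11.0 and 10.6 in K56A, with 0.21 ± 0.09 (limma, adjusted p = 0.357), or 0.08 over coding transcripts alone and 0.11 without WT replicate 2. TOPBP1, the activator of ATR, had 29.2 and 26.7 FPKM in WT and 23.6 and 25.0 in K56A, with -0.19 ± 0.08 (limma, adjusted p = 0.369), or -0.07 over coding transcripts alone. PPP4C had 0.12 ± 0.05 (limma, adjusted p = 0.357).

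The wider pathway gave the same count. A list of 50 other break-response genes (end sensors, RPA, fork-protection, phosphatase and methyltransferase partners) had 0 called in any of the 4 comparisons, with 50 tested for EPZ and 44 in the knockdown lines. KMT5C, a methyltransferase of H4, had mean levels of 9.32 FPKM for EV, 10.7 for WT and 12.9 for K56A, and its difference of 0.45 ± 0.09 for K56A versus EV was the nearest to the threshold (limma, adjusted p = 0.0824). KMT5B, the other H4 methyltransferase of that pair, had means of 9.53 FPKM under DMSO and 14.6 under EPZ, a difference of 0.59 ± 0.14 (limma, adjusted p = 0.756). TELO2, which stabilises ATM and ATR, differed by 0.31 ± 0.07 for K56A versus WT (limma, adjusted p = 0.170), and USP3, a deubiquitinase of histones, by 0.25 ± 0.07 for WT versus EV (limma, adjusted p = 0.164).

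Single transcripts were called in the authors' deposited tables where gene sums were not called by limma. The authors' calls come from edgeR for EPZ and from DESeq2 for WT and K56A. Both the test and the unit therefore differ, and their parts in the contrast cannot be told apart here. For EPZ, the authors' deposited table holds 254 transcripts of members, of which 2 had an adjusted p under 0.05, 0.787% against 1.19% of all transcripts. The authors' deposited table for WT called 10 of 287 (3.48% against 3.33%), 3 higher and 7 lower than EV. The authors' deposited table for K56A called 8 of 290 (2.76% against 3.8%), 4 in each direction. Both EPZ calls, 3 of the WT calls and 2 of the K56A calls are of transcripts listed at 0 in both libraries of a group. The transcripts named next were chosen after their values were seen.

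CHEK2-206, a coding transcript, was called lower in both knockdown tables. Both use the same EV libraries, so the calls are not independent. It had 10.2 and 9.39 FPKM for EV, 7.06 and 6.85 for WT, and 7.66 and 7.60 for K56A, and the log2 change was -0.51 for WT and -0.39 for K56A in the authors' deposited tables (adjusted p = 0.00898 and 0.0440). SMC1A-208 had 0.294 and 0.379 FPKM for EV, 1.16 and 1.12 for WT, and 0.647 and 0.359 for K56A, with 1.74 for WT in the authors' deposited table. TRIP12-201 had 3.30 and 3.21 FPKM in EV and 5.01 and 4.64 in K56A, with 0.53 in the authors' deposited table for K56A. RAD9A-201, of another clamp subunit, had 4.14 and 3.74 FPKM in EV and 6.54 and 6.24 in K56A, with 0.66 in the authors' deposited table for K56A. TOPBP1-210 had 1.93 and 1.73 FPKM in EV and 0.858 and 0.930 in K56A, with -1.07 in the authors' deposited table for K56A. TP53BP1-202 had 5.72 and 5.09 FPKM in EV and 7.15 and 7.11 in K56A, with 0.36 in the authors' deposited table for K56A. ATR-201 had 6.77 and 5.14 FPKM in EV and 2.48 and 3.96 in WT, with -0.90 in the authors' deposited table for WT (adjusted p = 0.0433). These transcripts are a part of their genes' FPKM, and the gene sums of all 7 missed the threshold of limma.

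**Figure D3:**
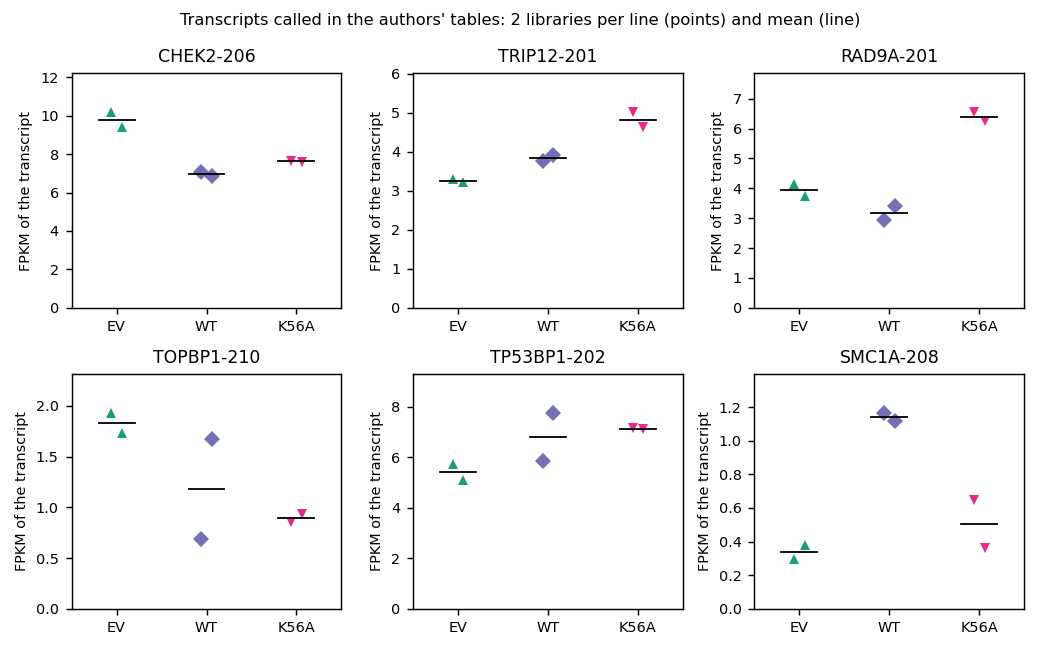
FPKM of 6 transcripts called in the authors' deposited tables (vertical axes from 0), with 1 point per library of EV, WT and K56A and a line at the mean of 2. CHEK2-206 has both EV libraries above the other 4, and SMC1A-208 has both WT libraries above the other 4.

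Levels of members were also set side by side between EV and DMSO, without a test, because the tables were normalized separately and the cells differ in several ways. Over 36 members the ratio of the EV mean to the DMSO mean had a median of 0.937, and 12 members lay beyond 1.5-fold, 7 above and 5 below. That is 33.3% of these members, and 46.6% of 10429 genes with at least 1 FPKM in both lay that far apart. RNF8 and PAXIP1, outside the joint knockdown fit, and SHLD1, below 1 FPKM, are not among the 36. RNF8 had 19.1 and 19.8 FPKM in DMSO and 11.2 and 11.4 in EV, a ratio of 0.581, or 0.595 over coding transcripts. The ratio of PAXIP1 was 0.966, or 0.676 over coding transcripts. The highest ratios belonged to ATR (2.48), ATM (2.14), PARP2 (2.07) and RIF1 (1.79). ATR had 7.44 and 7.93 FPKM in DMSO, and 20.0 and 18.1 in EV. Exons of another gene, on the other strand, cover 16.4% of the exonic bases of ATR. The lowest belonged to NUDT16L1 (0.473), MAD2L2 (0.488) and DYNLL1 (0.496). NUDT16L1 had 17.5 and 14.5 FPKM in DMSO and 7.54 and 7.59 in EV. Over coding transcripts alone, a count made after these values were seen, 9 of 36 members lay beyond 1.5-fold (25% against 47.9% of 9243 genes). The 3 above were ATR (1.78), ATM (1.81) and PARP2 (1.68), and 6 lay below. Of the other 4 that lay above over all transcripts, RIF1 had 1.35, TP53BP1 1.14, MDC1 1.43 and RAD9A 0.912, against totals of 1.79, 1.75, 1.62 and 1.70. The logarithms of ratio and gene span had r = 0.351 and rho = 0.368 across the 36 members, which share the same libraries. Over all genes they had r = -0.028 and rho = -0.021.

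Part of the EV FPKM lay in transcripts typed as retained intron, the class in which an intron stays in the RNA. Their share of members' summed FPKM was 5.46% to 5.97% in DMSO and EPZ and 13.6% to 15.3% in the knockdown libraries. Over all genes it was 6.13% to 6.41% and 9.66% to 10.3%. For 25 members such a transcript was above 0 in DMSO or EV, and 14 members had none. The share was higher in both EV libraries than in both DMSO libraries for 21 of the 25 (84% against 67.5% of 5932 genes with such a transcript) and lower for 0 (against 6.98%). For 6 of the 21 (ATRIP, CHEK1, CHEK2, HUS1, KMT5A and RAD1) the inhibitor table held no such transcript above 0 in DMSO, so their share could only be higher. Among the 19 members with one above 0 in both groups, a count added after the values were seen, 15 were higher (78.9% against 65.4% of 5134 genes) and 0 lower (against 6.88%). The tables differ in how many retained intron transcripts of members they list, 56 for the inhibitor and 78 for WT. The mean share was 41.6% in DMSO and 55.3% in EV for ATR, 14.8% and 33.0% for KAT5, 12.9% and 30.6% for TP53BP1 and 2.73% and 19.6% for UIMC1. ATM, PARP1, SMC1A and USP28 were the 4 of the 25 that did not separate. Within experiments fewer members separated. EPZ libraries were both above DMSO for 6 of 19 members (31.6% against 22.9%) and both below for 1 (5.26% against 13%). WT was above EV for 8 and below for 4 of 25 (19.3% and 16.1% of genes), and K56A above for 5 and below for 2 (20.5% and 16.3%).

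**Figure D4:**
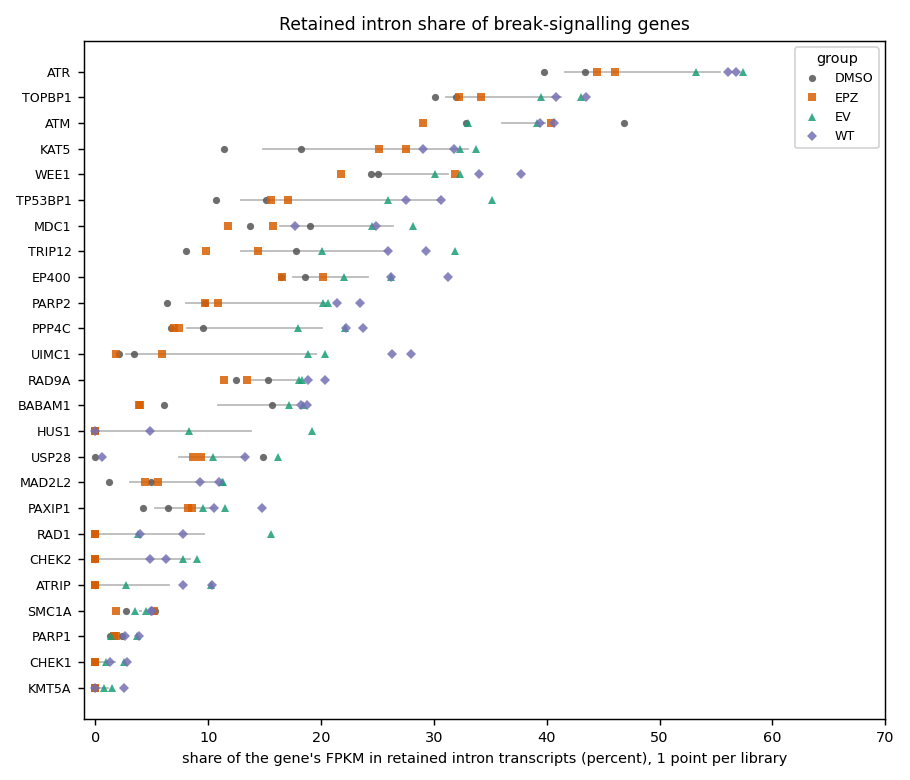
Share of each gene's FPKM in retained intron transcripts (percent) for the 25 members with such a transcript, 1 point per library of DMSO, EPZ, EV and WT, with a grey line from the DMSO mean to the EV mean. EV and WT points lie to the right of DMSO for most genes, and ATR has the largest mean shares, 41.6% in DMSO and 55.3% in EV.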

How the data were processed

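The 39 genes and the other lists were chosen with earlier results of these data known. The authors deposited FPKM per transcript in 3 tables (DMSO with EPZ, EV with WT, EV with K56A). The submitters' processing notes name STAR 2.7.1a, RSEM 1.3.3, Trim Galore 0.6.6, DESeq2 1.32.0 and GRCh38, without roles. Per the file headers, edgeR (inhibitor) and DESeq2 (knockdown) gave the log2 fold change, p-value and adjusted p-value of each transcript. Neither the annotation release nor the strand setting is given in the sources used here. Another 4 summary columns were not used.

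FPKM were summed per gene. A gene was tested if 2 or more libraries reached 1 FPKM, on log2(FPKM + 0.5), a scale that understates changes of low genes. The test was limma 3.58.1 in R 4.3.3, with an intensity trend, two-sided p-values and a Benjamini-Hochberg threshold of 0.05. EPZ versus DMSO used 4 libraries. The knockdown comparisons shared 1 fit of 6 libraries over the 69086 transcripts in both knockdown tables, with K56A scaled by the mean of the factors between the repeated EV columns (1.0007 and 1.0006). Genes with over 5% of FPKM in transcripts of a single table were left out (2284 of 13850, with RNF8 and PAXIP1 among the members). DMSO and EPZ were never tested against the knockdown lines. The fit was also run on simulated data with independent noise set from the spread of these libraries. That run is not used as support for any result. Statistics follow a rule: members past the threshold in a comparison, or else the 4 with the smallest p, and likewise for the list of other genes. Further values were added after they were seen. Exon overlaps used GENCODE v29, and tables were handled with Python 3.11.15 and pandas 2.3.3.

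The tables hold no counts, so depth is known only in relative terms. From the commonest ratio of low FPKM values, the other inhibitor libraries had 1.07 to 1.28 times as many reads as DMSO replicate 1, and the other knockdown libraries 0.869 to 1.21 times as many as EV replicate 1. Whether replicates were separate cultures is not labelled, and the p-values may therefore reflect technical spread only. Alternatives were other pseudocounts, filters, scalings and transcript types, no trend, a replicate block, each table alone and each library left out.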

Additional observations from a re-analysis of the deposited data

How the results depend on the processing

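With 2 libraries per group, the count of members called stayed at 0 in all 4 comparisons under other pseudocounts, filters and scalings, coding transcripts alone and no intensity trend. It was also 0 with each table fitted alone, which was run for WT versus EV and K56A versus EV. With libraries left out in turn it stayed at 0, except for EPZ versus DMSO without DMSO replicate 2. That fit has 1 DMSO library, and the count over all genes rose in it as well. The cause was not tested. With the replicate number as a replicate block, 0 members were called in every comparison. The block gave 2 genes for EPZ versus DMSO (1 without it), 46 for WT versus EV (62), 53 for K56A versus EV (91) and 3 for K56A versus WT (7). Same-numbered libraries deviated together with r = 0.24 for DMSO and EPZ and between -0.03 and 0.03 for the knockdown groups. With 2 pairs and no label that ties the numbers, pairing was not established in either experiment. Over 16 values of named members and 216 alternatives, all kept their direction and 1 passed the threshold, KAT5 for EPZ without DMSO replicate 2 (limma, adjusted p = 0.0446), whose log2 change ranged from 0.14 to 0.47. Coding transcripts alone moved 7 of these values by over 1.5 times, 6 of them toward 0, as given beside each result, and the cause was not tested. Without the intensity trend, genes called fell to 0, 1, 4 and 0 in the order given. The number of reads per gene is unknown, so precision rests on replicate spread alone.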
